A study of Mus musculus with 4 samples.

Results

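The 33 genes described here make bile acids, join them to amino acids, carry them and other bile constituents into and out of the liver cell, and receive the intestinal signal that limits their synthesis. The rule that picks them is a list of symbols drawn up with earlier results of these data known, and all 33 were found among the 25793 gene symbols of each count table. By role, 7 act on the sterol nucleus, 4 shorten the side chain, 2 conjugate, 6 take up bile acids or other organic anions from blood, 1 (Slc10a2) takes up bile acids outside the hepatocyte, 8 export into bile or support that export, 3 export across the basolateral membrane and 2 form the FGF receptor. Messenger RNA was measured by sequencing in 4 mouse liver libraries. Tumours 1 and 2 were labelled liver tumours of β2SP+/-; SMAD3+/- mice, which carry 1 intact copy each of the gene for the spectrin adaptor β2SP (Spnb2 in the tables) and of the gene for the TGF-beta signal transducer Smad3. The normal tables were labelled normal liver of a mouse of that double heterozygous genotype and of a wild type mouse. No source used here gives ages or says whether each tumour was of its own animal, so p-values measure only the spread between these samples. The submitters' short descriptions read differently from their other labels: they carry the word Tcell for both tumours and name hepatocytes for both normal samples.

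Hepatocytes make bile acids from cholesterol by a classical route that starts with Cyp7a1 and an alternative route that starts with Cyp27a1. The products are conjugated, pumped across the canalicular membrane by ATP-driven exporters, reabsorbed in the ileum and taken back from portal blood by carriers of the sinusoidal membrane. Bile acids hold their own synthesis down through the nuclear receptor FXR (Nr1h4) and, by way of intestinal FGF15, through Fgfr4 and its partner Klb. In cholestasis, when bile flow is impaired, basolateral exporters such as Abcc3 and Abcc4 are known to carry bile acids back to blood.

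Several properties of the libraries touch every result below. Gene counts came to 11049931 and 13295216 in tumours 1 and 2, against 15950426 and 18448621 in the double heterozygous and wild type normal tables. Spnb2 stood at 16607 and 19149 counts in the tumours, against 3364 and 3549 in the normal tables, and Smad3 at 4521 and 2174, against 426 and 460, so neither gene had fewer counts in the tumours. Of 8 hepatocyte markers 6 were called lower in the tumours, where their summed level was 330.5 and 465.8 CPM, far below the 185000 and 166700 CPM of the double heterozygous and wild type normal tables. With shared-sequence genes left out, among them Serpina1a and Trf, 3 were called. Alb, the serum albumin gene, was at 7.15 and 37.3 CPM in the tumours, against 111200 and 100200 CPM (adjusted p = 0.0479, but 0.0558 and 0.0513 against the double heterozygous and wild type table alone), and Ttr, the transthyretin gene, at 0.523 and 1.06 CPM, against 8290 and 7228 CPM. Of 8 bile duct markers 4 were called higher (Krt7, Krt19, Spp1 and Tspan8), with sums of 2483 and 1951 CPM in the tumours against 48.9 and 42.9 CPM, while Epcam did not pass (20.7 and 0.185 CPM against 4.72 and 4.03 CPM). Of 6 endothelial markers 2 were called lower (sums of 0.465 and 1.16 CPM in the tumours against 216.6 and 201.2 CPM), with Pecam1 at 5 counts in each tumour. Of 6 Kupffer cell markers only Clec4f was called (0 counts in both tumours; sums of 16.7 and 4.12 CPM against 104.6 and 94.1 CPM). Fibroblast markers, of which none of 6 was called, summed to 3.31 and 495.5 CPM in the tumours against 84.8 and 73.6 CPM. The T cell markers Cd3e, Cd3d, Cd3g, Cd4 and Cd8a were at 0 counts in both tumours, and the pan-leukocyte gene Ptprc was at 2.03 and 0.0925 CPM. Lck, also on this list, stood at 0.523 and 0.509 CPM in the tumours, against 0.513 and 0.671 CPM. The 7 markers summed to 2.56 and 0.601 CPM against 11.3 and 11.4 CPM. The T cell receptor complex and coreceptor genes were thus at 0 in the libraries whose short descriptions carry the word Tcell. Of these, Cd3d, Cd3g and Cd8a had only 1 or 2 counts in each normal table too. In bulk RNA, fewer cells of a type and less RNA per cell cannot be told apart, and the part of cell make-up in the results was not tested.

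Both normal tables were counted as 1 library. Among 2632 genes with a mean count of 1 to 5 in these tables, 56.8% had the same count in both, against 22.0% computed for independent tables of their depths and 13.1% between the tumours in the same range. All 33 members had the higher raw count in the wild type table, which was also the deeper one (18448621 gene counts against 15950426). After scaling, the median log2 ratio of the double heterozygous to the wild type table was 0.17 over 32 members. Levels are given for each table in CPM, gene counts relative to library size with TMM scaling, on which 1 count is 0.0581 and 0.0463 CPM in tumours 1 and 2. Fold changes and p-values come from edgeR's quasi-likelihood test of both tumours against the mean of the normal tables, adjusted by Benjamini-Hochberg over 14468 genes, and a gene is said to fall or rise where the adjusted p was under 0.05.

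The tumours held little RNA of the bile acid genes. Of the 33 members 22 fell and 0 rose, where 5.19% of all 14468 genes tested were called lower and 2.23% higher. The other 11 did not pass. At an unadjusted p under 0.05 the counts were 29 lower and 1 higher, beside 2237 and 1810 of all 14468 genes tested. The median log2 fold change was -10.85 over the members (-9.78 with Slc22a7, at 0 in both tumours, placed at its bound) and 0.19 over all genes tested. Both tumours lay below both normal tables for 30 members, against 36.7% of all genes, and above both for 1 member, Abcc4, against 41.7% of all genes. Low counts set a limit here: all 33 members passed the filter on low counts, 15 of them through the normal library alone, 7 were at 0 in at least 1 tumour, and 13 had 5 counts or fewer in each tumour. The summed level of all members was 1555 and 371.8 CPM in the tumours, against 27870 and 25930 CPM for the double heterozygous and wild type normal tables, and without the 3 basolateral genes it was 548.5 and 197 CPM against 25660 and 23930 CPM.

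**Figure D1:**
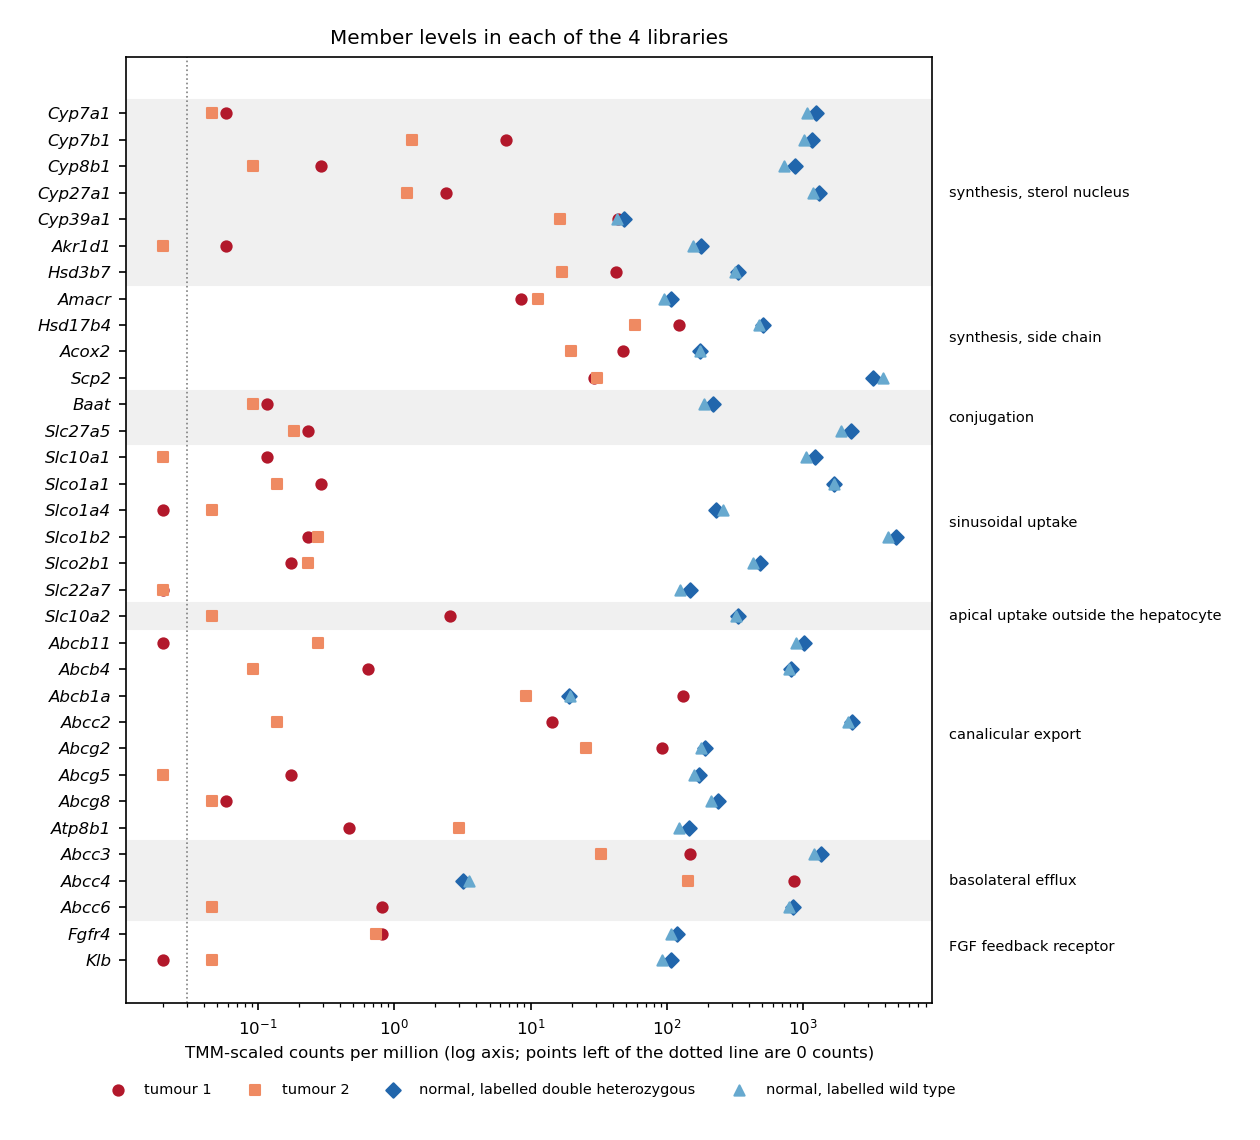
Level of each of the 33 members in TMM-scaled CPM on a log axis, 1 point per library, grouped by role; points left of the dotted line are 0 counts. For 30 members both tumour points lie left of both normal points, and for Abcc4 both lie right of them.

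Promoter sequence was available for 22 of the 33 members, as RefSeq windows of 250 bases before to 50 bases after the start (build GRCm38.p6), and 5 are shown because they stand for the main patterns: a synthesis enzyme, an uptake carrier and a pair of canalicular exporters that fell, and the exporter that was higher in both tumours. The windows are Cyp8b1 (chr9:121916256-121916555, minus strand), Slc10a1 (chr12:80968656-80968955, minus strand), Abcb11 (chr2:69342567-69342866, minus strand), Abcg5 (chr17:84682962-84683261, minus strand) and Abcc4 (chr14:118706170-118706469, minus strand), each written 5′ to 3′ along the gene's strand. Capitals mark letters that match a searched motif on either strand.
Cyp8b1: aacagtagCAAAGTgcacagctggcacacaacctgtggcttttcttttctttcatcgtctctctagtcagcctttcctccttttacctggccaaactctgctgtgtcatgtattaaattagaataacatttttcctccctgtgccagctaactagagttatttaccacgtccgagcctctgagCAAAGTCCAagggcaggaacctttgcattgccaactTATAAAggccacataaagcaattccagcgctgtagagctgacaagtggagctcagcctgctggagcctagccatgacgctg
Slc10a1: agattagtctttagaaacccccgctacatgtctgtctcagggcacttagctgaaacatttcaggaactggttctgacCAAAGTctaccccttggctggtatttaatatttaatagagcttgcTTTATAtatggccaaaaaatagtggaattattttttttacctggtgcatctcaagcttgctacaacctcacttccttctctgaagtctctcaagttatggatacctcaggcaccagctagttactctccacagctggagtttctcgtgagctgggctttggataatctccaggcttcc
Abcb11: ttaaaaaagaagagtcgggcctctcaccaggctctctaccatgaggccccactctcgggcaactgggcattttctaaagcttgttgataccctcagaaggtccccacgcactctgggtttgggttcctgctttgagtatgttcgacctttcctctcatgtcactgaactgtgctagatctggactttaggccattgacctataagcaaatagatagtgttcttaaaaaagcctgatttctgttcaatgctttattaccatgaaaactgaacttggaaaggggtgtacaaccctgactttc
Abcg5: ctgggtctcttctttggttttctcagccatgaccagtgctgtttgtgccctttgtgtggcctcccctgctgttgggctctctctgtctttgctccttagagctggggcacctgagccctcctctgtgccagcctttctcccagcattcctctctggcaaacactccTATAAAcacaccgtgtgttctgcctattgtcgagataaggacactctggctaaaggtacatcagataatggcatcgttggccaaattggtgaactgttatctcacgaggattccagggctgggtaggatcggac
Abcc4: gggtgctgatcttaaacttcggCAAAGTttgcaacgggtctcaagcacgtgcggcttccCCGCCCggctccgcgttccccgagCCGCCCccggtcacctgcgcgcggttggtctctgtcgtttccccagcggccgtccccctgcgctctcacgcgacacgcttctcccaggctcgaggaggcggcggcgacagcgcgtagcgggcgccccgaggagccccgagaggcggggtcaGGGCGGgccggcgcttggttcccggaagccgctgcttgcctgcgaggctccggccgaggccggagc
The longer HNF4 motif CAAAGTCCA occurred in the Cyp8b1 window alone among the 22, 67 bases before the start, and in 0.477% of the 27025 windows of all genes. Its shorter form CAAAGT, which lies within it, occurred in 6 of 22 member windows (Abcb1a, Abcc2, Abcc4, Cyp8b1, Scp2 and Slc10a1) and in 14.3% of all windows. The TATA motif TATAAA occurred in 7 of 22 and in 14.2% of all windows. In Cyp8b1 it lay 31 bases before the start. In Abcg5, whose window overlaps that of Abcg8 on the other strand by 209 bases, it lay 84 bases before the start, and the same letters on the other strand lay 31 bases before the start of Abcg8. The GC box GGGCGG occurred in 6 of 22 and in 35.9% of all windows, with matches 191, 167 and 16 bases before the start of Abcc4. The HNF1 motif GTTAAT occurred in 2 of 22 (7.20% of all windows), the LRH-1 motif CAAGGTCA in 1 of 22, Abcg2 (1.53%), its other form CAAGGCCA in 0 of 22 (2.41%), and the FXR core GGTCANTGA in 0 of 22 (0.799%). The Abcb11 window held no exact match to these letters. That says nothing of sites spelled with other letters within the window, or of sites elsewhere. Promoters were thus mixed in these motifs among genes that fell, and a match is a description of letters and not a measured site.

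Enzymes that act on the sterol nucleus carry out the early steps of the pathway, and 5 of 7 fell. Cyp7a1, the rate-limiting cholesterol hydroxylase of the classical route, had 1 count in each tumour, against 12173 and 12675 counts in the double heterozygous and wild type normal tables (1250 and 1063 CPM). Its counts were 22790-fold lower in the pooled tumours, with a 95% counting interval of 6308 to 188200, and edgeR gave an adjusted p of 0.0182. Cyp8b1, the sterol hydroxylase that directs synthesis toward cholic acid, had 5 and 2 counts in the tumours against 8467 and 8639 in the normal tables (log2 fold change -12.03, SE 1.01, adjusted p = 0.0182). Akr1d1, the reductase of the sterol ring, had 1 and 0 counts in the tumours, against 1746 and 1852 in the normal tables (6601-fold lower, counting interval 1183 to 260900, adjusted p = 0.0190). These 3 genes were thus at a handful of reads in each tumour.
Cyp27a1, which starts the alternative route in mitochondria, stood at 2.38 and 1.25 CPM in tumours 1 and 2, against 1314 and 1180 CPM in the double heterozygous and wild type normal tables (log2 fold change -9.45, SE 0.88, adjusted p = 0.0205). Cyp7b1, the oxysterol hydroxylase of that route, stood at 6.62 and 1.34 CPM in the tumours, against 1161 and 1023 CPM (log2 fold change -8.13, SE 1.25, adjusted p = 0.0401). Tumour 1 was the higher of the tumours for both, and no tumour value came near a normal one.

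Cyp39a1 and Hsd3b7 did not pass. Cyp39a1, another oxysterol hydroxylase, stood at 43.9 and 16.5 CPM in tumours 1 and 2, against 48.9 and 43.2 CPM in the double heterozygous and wild type normal tables (log2 fold change -0.63, SE 0.78, adjusted p = 0.628). Tumour 1 overlapped the normal tables and tumour 2 lay below them, and the sign of this fold change was positive (0.72) when libraries were scaled by total gene counts alone. Hsd3b7, the dehydrogenase that follows the first hydroxylation, stood at 42.6 and 17.0 CPM in the tumours, against 332.9 and 318.9 CPM (log2 fold change -3.48, SE 0.75, adjusted p = 0.0722). Of its sequence 89.4% is shared with other genes, so its counts are uncertain. The summed level of the 7 genes was 96.0 and 36.3 CPM in the tumours, against 5155 and 4507 CPM for the normal tables. Cyp39a1 and Hsd3b7 had most of the tumour sum and little of the normal one. With tumour 1 left out, the log2 ratios of the 5 genes that fell ran from -9.51 (Cyp7b1) to -12.71 (Cyp7a1), and with tumour 2 left out from -7.30 (Cyp7b1) to -12.46 (Cyp7a1), each with no test.

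Of the 4 peroxisomal enzymes that shorten the side chain 2 fell. Scp2, which encodes a sterol carrier and a thiolase, had 505 and 670 counts in tumours 1 and 2, against 31861 and 45804 counts in the double heterozygous and wild type normal tables (log2 fold change -6.93, SE 0.80, edgeR adjusted p = 0.0259). It shares 32.0% of its sequence with other genes. Amacr, the racemase that prepares the side chain for oxidation, stood at 8.54 and 11.3 CPM in the tumours, against 107.5 and 94.9 CPM (log2 fold change -3.38, SE 0.55, adjusted p = 0.0449). Its call was lost (adjusted p = 0.0945) when libraries were scaled by total gene counts alone. For both genes the tumours lay close together.
Hsd17b4, the bifunctional enzyme of peroxisomal beta-oxidation, stood at 123 and 58.4 CPM in the tumours, against 504.3 and 473.9 CPM (log2 fold change -2.46, SE 0.70, adjusted p = 0.116). Acox2, the branched-chain oxidase of the same steps, stood at 47.7 and 19.8 CPM in the tumours, against 174 and 175 CPM (log2 fold change -2.41, SE 0.71, adjusted p = 0.125). Both tumours were below both normal tables for these 2 genes, and tumour 1 was the higher of the tumours. Each of the 4 genes also serves the oxidation of other fatty acids or sterols. Together they summed to 208.6 and 120.4 CPM in the tumours, against 4057 and 4585 CPM for the normal tables.

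Both conjugation genes fell. Slc27a5, the ligase that activates bile acids with coenzyme A, had 4 counts in each tumour, against 21855 and 22752 in the double heterozygous and wild type normal tables (log2 fold change -13.26, SE 0.95, edgeR adjusted p = 0.0182). Baat, the transferase that then adds taurine or glycine, had 2 counts in each tumour, against 2114 and 2231 (log2 fold change -10.85, SE 0.71, adjusted p = 0.0182). The tumours agreed in counts for both genes. With either tumour left out, the log2 ratios lay between -12.69 and -12.40 for Slc27a5 and between -9.84 and -9.58 for Baat.

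Every one of the 6 carriers of sinusoidal uptake fell, and none had more than 6 counts in a tumour. Slc10a1, the sodium-dependent taurocholate carrier, had 2 and 0 counts in tumours 1 and 2, against 11827 and 12535 in the double heterozygous and wild type normal tables (22350-fold lower, 95% counting interval 6185 to 184600, edgeR adjusted p = 0.0215). Slco1b2, an organic anion carrier at place 2 among the 33 members in level per length in normal liver, had 4 and 6 counts in the tumours. Its normal counts were 46566 and 49971 (log2 fold change -14.08, SE 1.08, edgeR adjusted p = 0.0182). Slco1a1, a carrier of the same family, had 5 and 3 counts in the tumours against 16447 and 20006 (log2 fold change -12.95, SE 1.01, adjusted p = 0.0182). Per length these 3 held places 2, 5 and 8 among the 33 members in normal liver, and none came above place 16 in a tumour.
Slco1a4, another organic anion carrier, had 0 and 1 counts in the tumours, against 2237 and 3059 (9716-fold lower, counting interval 1742 to 383900, adjusted p = 0.0182). Slco2b1, a more widely expressed member of that family, had 3 and 5 counts in the tumours, against 4670 and 5080 (log2 fold change -11.09, SE 0.73, adjusted p = 0.0182). Slc22a7, an organic anion carrier of another family, had 0 counts in both tumours, against 1430 and 1490, which is at least 881-fold lower at a floor of 3 counts per library (adjusted p = 0.0225). The 6 carriers summed to 0.813 and 0.694 CPM in the tumours, against 8539 and 7727 CPM for the normal tables. With either tumour left out, their log2 ratios lay between -13.52 (Slco1b2) and -9.87 (Slc22a7).

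Slc10a2, the sodium-dependent carrier known from the ileum and the apical membrane of bile duct cells, had 44 and 1 counts in tumours 1 and 2, against 3262 and 3853 in the double heterozygous and wild type normal tables. That is 2.56 and 0.0463 CPM in the tumours, against 334.9 and 323.1 CPM (log2 fold change -8.03, SE 1.93, edgeR adjusted p = 0.0876). The tumours did not overlap the normal tables, but they differed widely from each other and the test was not passed. With tumour 1 left out the log2 ratio was -10.90, and with tumour 2 left out -6.90. Among the markers of the tissues in which this carrier is known, the summed bile duct list ran the other way (2483 and 1951 CPM in the tumours against 48.9 and 42.9 CPM). Spp1 alone held 1316 and 1366 CPM of the tumour sums, and 4 of the 8 markers were called higher. Epcam (20.7 and 0.185 CPM against 4.72 and 4.03 CPM) and Cftr (27.1 and 0.324 CPM against 1.54 and 1.34 CPM) lay below the normal tables in tumour 2. Of the 4 intestinal markers, a list that holds Slc10a2 itself, none was called. Fabp6 was at 0 in all libraries. Vil1 ran opposite to Slc10a2, at 134.5 and 20.7 CPM in the tumours, against 12.7 and 11.5 CPM. Cdx2 was above the normal tables in tumour 1 and below them in tumour 2 (105.4 and 0.139 CPM, against 0.616 and 0.587 CPM). Like Slc10a2, both Vil1 and Cdx2 were higher in tumour 1 than in tumour 2.

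Canalicular exporters divided, with 4 of 8 falling. Abcb11, the bile salt export pump, had 0 and 6 counts in tumours 1 and 2, against 9845 and 10571 in the double heterozygous and wild type normal tables (log2 fold change -12.60, SE 1.57, edgeR adjusted p = 0.0282). Abcb4, which moves phosphatidylcholine into bile, had 11 and 2 counts in the tumours, against 7985 and 9360 (log2 fold change -11.14, SE 1.32, adjusted p = 0.0265). Abcg5 and Abcg8 encode the partner subunits of the sterol exporter. Abcg5 had 3 and 0 counts in the tumours, against 1675 and 1880 (2175-fold lower, counting interval 742.9 to 10560, adjusted p = 0.0278). Abcg8 had 1 count in each tumour, against 2321 and 2499 (4421-fold lower, counting interval 1223 to 36530, adjusted p = 0.0182). The pumps for the main bile lipids were thus all near 0 in both tumours. With tumour 1 left out their log2 ratios ran from -11.84 (Abcb4) to -10.34 (Abcg8), and with tumour 2 left out from -12.68 (Abcb11) to -9.00 (Abcg5).

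The other 4 canalicular genes did not pass. Abcc2, which exports bilirubin and other conjugates, had 249 and 3 counts in tumours 1 and 2, against 22353 and 25490 in the double heterozygous and wild type normal tables (14.5 and 0.139 CPM against 2295 and 2138 CPM). Its log2 fold change was -8.28 (SE 2.48, edgeR adjusted p = 0.128), and both tumours lay far below both normal tables. The log2 ratio was -13.02 with tumour 1 left out and -7.22 with tumour 2 left out. Atp8b1, the lipid flippase that protects the canalicular membrane, stood at 0.465 and 3.01 CPM in the tumours, against 144.5 and 122.9 CPM (log2 fold change -6.27, SE 1.20, adjusted p = 0.0577). Abcg2, an exporter of sulfated compounds and urate, stood at 91.9 and 25.7 CPM in the tumours, against 191.3 and 177 CPM (log2 fold change -1.68, SE 0.88, adjusted p = 0.286). Each was below the normal tables in both tumours without passing the test.
Abcb1a, a multidrug exporter, was the only member on both sides of normal liver: 131.8 CPM in tumour 1 and 9.20 CPM in tumour 2, against 19.1 and 19.5 CPM (log2 fold change 1.83, SE 1.67, adjusted p = 0.510). Its log2 ratio was -1.04 with tumour 1 left out and 2.78 with tumour 2 left out. It shares 29.8% of its sequence with other genes. Its paralog Abcb1b stood at 12.2 and 27.1 CPM in the tumours, against 2.05 and 2.10 CPM, and did not pass (adjusted p = 0.128). The 8 canalicular genes summed to 239.5 and 38.5 CPM in the tumours, against 4890 and 4496 CPM for the normal tables.

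**Figure D2:**
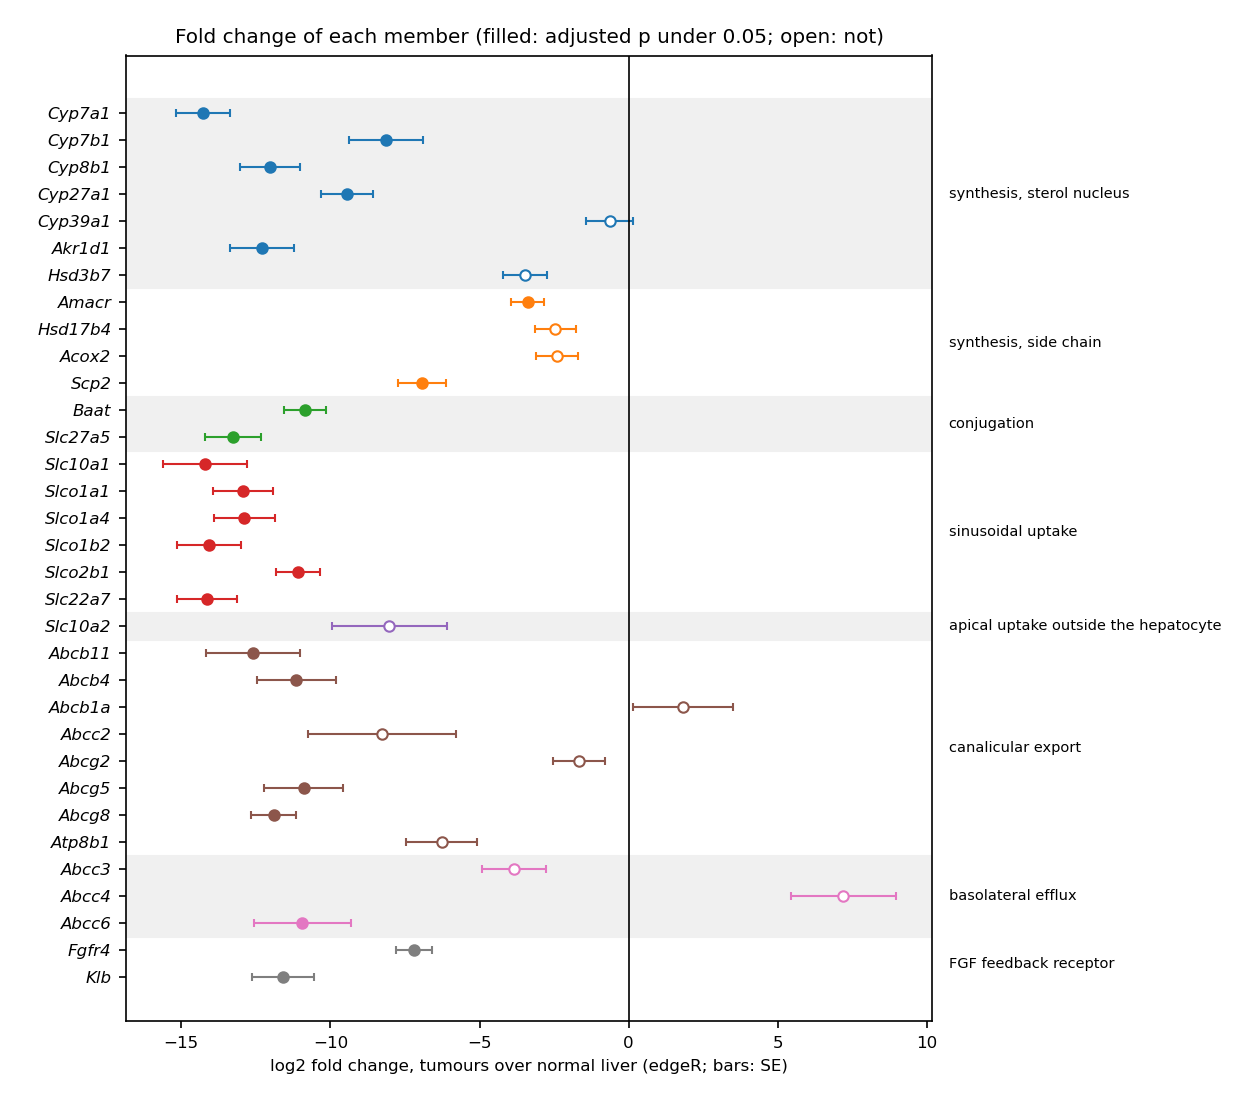
Log2 fold change of each member in both tumours over normal liver, with bars of 1 SE; filled points passed an adjusted p of 0.05 in edgeR's quasi-likelihood test and open points did not. The 22 filled points all lie left of 0, and Abcc4 at 7.20 and Abcb1a at 1.83 are the open points to its right.

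The basolateral exporters went in different directions. Abcc4, which exports bile acids together with glutathione as well as cyclic nucleotides, had 14752 and 3072 counts in tumours 1 and 2, against 31 and 42 in the double heterozygous and wild type normal tables. Its level was 857 and 142 CPM in the tumours (499.5 ± 505.5 CPM, SD, n = 2), against 3.18 and 3.52 CPM. Both tumours lay far above both normal tables, and the log2 fold change of 7.20 (SE 1.76) did not pass in edgeR (adjusted p = 0.0910). It passed in edgeR with no filter on low counts (adjusted p = 0.0189) and in DESeq2 (8.59e-09), where 12.2% of all genes were called higher. With both normal tables as separate libraries it also passed in edgeR (0.0165). That setting treats tables that share counts as replicates, and it called 3058 of 13511 genes higher. The log2 ratio was 5.39 with tumour 1 left out and 7.97 with tumour 2 left out.
Abcc3, which exports glucuronides and bile acids, stood at 148.3 and 32.7 CPM in the tumours, against 1359 and 1206 CPM (log2 fold change -3.85, SE 1.07, adjusted p = 0.113), with a log2 ratio of -5.26 without tumour 1 and -3.08 without tumour 2. Abcc6, a transporter linked to ATP release and to soft tissue mineralisation, had 14 and 1 counts in the tumours, against 8200 and 9412, and fell (log2 fold change -10.94, SE 1.63, adjusted p = 0.0381). Its log2 ratio was -12.21 without tumour 1 and -9.71 without tumour 2. Abcc4 lay above normal liver beside a bile duct marker list of which 4 of 8 members were called higher, as given above, and the part of that cell type in its level was not tested.

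Divided by exon length, the make-up of the 11 exporters differed between tumours and normal liver. Abcc4 made up 67.9% and 66.7% of their summed CPM per kb in tumours 1 and 2, against 0.0447% and 0.0544% in the double heterozygous and wild type normal tables. Abcc2, at 24.1% and 24.7% the leading exporter of the normal tables, made up 0.858% and 0.0487% in the tumours. Abcb11 was at 0% and 0.162% in the tumours, against 17.6% and 17.0%. Abcc3 made up 13.2% and 17.2% in the tumours, against 21.4% and 20.9%. Shares of a sum are tied to each other, and the summed level itself was 197.5 and 33.4 CPM per kb in the tumours, against 1114 and 1014 CPM per kb.

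**Figure D3:**
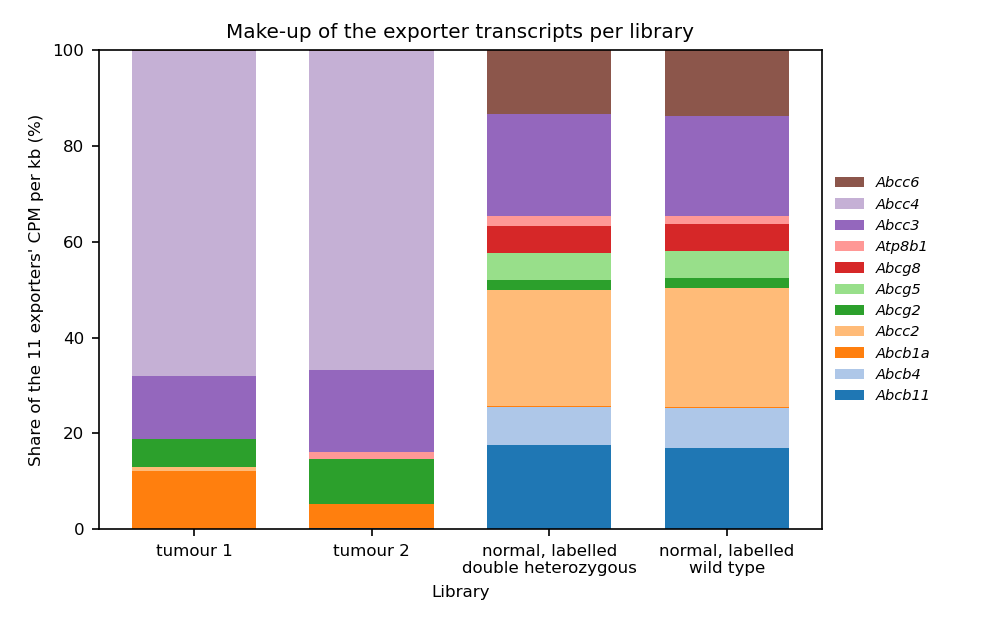
Share of each of the 8 canalicular and 3 basolateral genes in their summed CPM per kb of exon, 1 bar per library. Abcc4 takes 67.9% and 66.7% of the tumour bars and is too thin to see in the normal bars, where Abcc2, Abcc3 and Abcb11 lead.

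Among all 33 members the order of levels per kb of exon was also different. In normal liver Scp2 (1022 CPM per kb in the mean of both tables), Slco1b2 (910), Slc27a5 (851.5), Cyp27a1 (573.9), Slc10a1 (515.1) and Cyp7b1 (504.1) led, and Abcc4 was last with 0.525 CPM per kb. In the tumours Abcc4 was first, with 134.1 and 22.2 CPM per kb, and Hsd17b4 second, with 36.1 and 17.2 CPM per kb. Abcc3 followed in tumour 1 with 26.0 CPM per kb and Scp2 in tumour 2 with 8.91 CPM per kb. Cyp39a1, at place 31 of 33 in normal liver, held place 6 in both tumours.

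Both parts of the receptor for FGF15 fell. Fgfr4, the receptor kinase, had 14 and 16 counts in tumours 1 and 2, against 1155 and 1277 in the double heterozygous and wild type normal tables (log2 fold change -7.20, SE 0.61, edgeR adjusted p = 0.0182). Klb, the membrane partner it needs, had 0 and 1 counts in the tumours, against 1053 and 1101 (3952-fold lower, counting interval 707.8 to 156200, adjusted p = 0.0195), with a log2 ratio of -9.18 without tumour 1 and -9.43 without tumour 2. Fgf15 itself, an intestinal hormone, was at 0 counts in all 4 libraries, as was the bile acid receptor gene Gpbar1. Of the list of 20 sensors and regulators 18 were tested, and 3 fell and 0 rose. With shared-sequence genes left out 1 of the 3 remained, since Nr1i3 and Onecut1 have 67.1% and 52.5% shared sequence. The count lower was 5 with RLE size factors, 10 with no filter on low counts, 11 in DESeq2 and 13 with separate normal tables. The share of all genes called lower also rose in each setting that raised this count. It was 5.19% in the main fit, 12.8% in DESeq2 and higher still with separate normal tables. Nr1i3, a xenobiotic receptor, had 0 counts in both tumours, against 2343 and 3960. Ppara, the receptor for fatty acids, stood at 2.85 and 0.509 CPM in the tumours against 791.8 and 712.3 CPM (log2 fold change -8.84, SE 1.29, adjusted p = 0.0366). Onecut1, a liver transcription factor, stood at 0.174 and 0.463 CPM against 96.1 and 99.5 CPM (adjusted p = 0.0221).
The receptors that govern synthesis most directly did not pass against the mean normal library. Nr1h4, which encodes FXR, stood at 25.9 and 5.09 CPM in the tumours, against 185.8 and 208 CPM (log2 fold change -3.71, SE 1.05, adjusted p = 0.116). Its target Nr0b2, which encodes the repressor SHP, had 0.232 and 0 CPM in the tumours against 38.3 and 34.0 CPM (log2 fold change -8.30, SE 1.57, adjusted p = 0.0568). Against each normal table on its own, in the fit of 3 groups, it was called lower (adjusted p = 0.0446 for the double heterozygous and 0.0419 for the wild type table). Nr5a2, which encodes the activator LRH-1, had 2.73 and 0 CPM in the tumours, against 83.1 and 81.9 CPM (adjusted p = 0.172). Hnf4a, which drives many hepatocyte genes, stood at 135 and 92.1 CPM in the tumours, against 1163 and 1010 CPM (log2 fold change -3.28, SE 0.65, adjusted p = 0.0621). Both tumours were below both normal tables for all 4 of these genes.

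Other genes of bile acid handling followed in part. Of 25 further enzymes and transporters 21 were tested, and 7 fell and 1 rose, against 11 and 2 in DESeq2 and 14 and 3 with separate normal tables. Of all genes, 5.19% were called lower and 2.23% higher in the main fit, against 12.8% and 12.2% in DESeq2. Both shares were higher still with separate normal tables. Cyp2c70, the mouse enzyme that makes muricholic acids, stood at 0.174 and 0.0463 CPM in the tumours, against 1848 and 1669 CPM for the double heterozygous and wild type normal tables (log2 fold change -13.95, SE 1.15, adjusted p = 0.0182). Fabp1, a fatty acid binding protein, Acaa1b, a peroxisomal thiolase with 43.9% shared sequence, Slc47a1, a cation extruder, and 2810007J24Rik also fell. So did Abca1, a cholesterol exporter, at 59.4 and 24.8 CPM in the tumours against 1116 and 998.1 CPM (edgeR adjusted p = 0.0494). With upper quartile scaling Abca1 was past the threshold no longer (0.0520).
The gene that rose was Abcc1, a basolateral exporter of glutathione conjugates related to Abcc4. It stood at 284.8 and 228 CPM in the tumours (256.4 ± 40.1 CPM, SD, n = 2), against 1.85 and 1.76 CPM (log2 fold change 7.08, SE 0.85, adjusted p = 0.0269). Of 15 genes for canalicular trafficking and polarity 2 fell and 0 rose. In other settings 3 were called higher with no TMM, with no filter, in DESeq2 and with separate normal tables, and 5 lower in each of the last 2. The matching shares of all genes were also larger in those settings than in the main fit. The 2 trafficking and polarity genes that fell in the main fit encode apical peptidases. They were Dpp4, at 0.407 and 0.509 CPM in the tumours against 419.8 and 367.8 CPM (adjusted p = 0.0182), and Anpep, at 0.349 and 0.185 CPM against 331.1 and 286.4 CPM (adjusted p = 0.0182). At an unadjusted p under 0.05 the trafficking list had 5 lower and 3 higher, beside 2237 and 1810 of all 14468 genes tested. Its median log2 fold change was -0.52, that of the further enzymes and transporters -2.69, that of the regulators -3.36, and that of all genes tested 0.19.

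**Figure D4:**
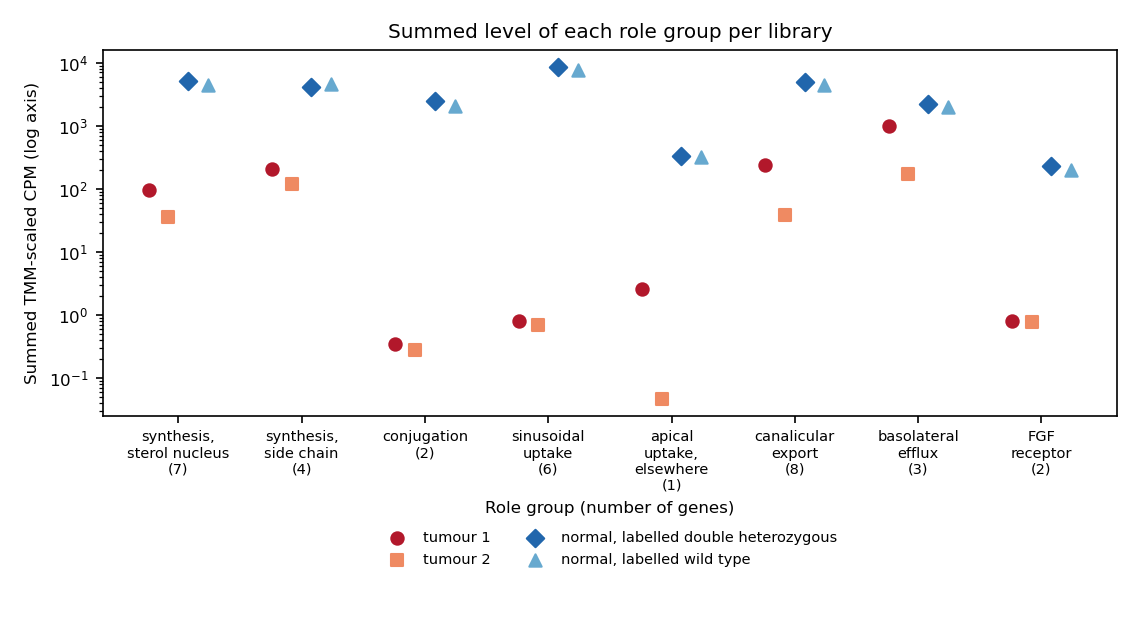
Summed TMM-scaled CPM of each role group on a log axis, 1 point per library, with the number of genes in brackets. Sinusoidal uptake stands at 0.813 and 0.694 CPM in the tumours, far below the normal tables at 8539 and 7727 CPM, and basolateral efflux, which holds Abcc4, at 1006 and 174.9 CPM against 2204 and 1999 CPM.

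Set side by side, most of the members that were still measurable in a tumour were higher in tumour 1 than in tumour 2. This compares 1 library with 1, so it has no replicate check and no test. Of the 11 members with at least 10 CPM in either tumour, 9 were over 2-fold higher in tumour 1 and 0 over 2-fold lower, where 12.0% of 9242 genes compared were higher and 15.6% lower. The median log2 ratio of tumour 1 to tumour 2 was 1.41 over these members and 0.01 over all genes compared. The exporters were at the top: the log2 ratio was 5.91 for Abcc2, 3.83 for Abcb1a, 2.59 for Abcc4, 2.18 for Abcc3 and 1.83 for Abcg2. Abcc2 (14.5 and 0.139 CPM in tumours 1 and 2) and Abcb1a (131.8 and 9.20 CPM) reached 10 CPM in tumour 1 alone. Amacr (8.54 and 11.3 CPM) reached it in tumour 2 alone. The rule thus fixed the direction of these ratios in advance, and they carry no weight for it. The enzymes Cyp39a1, Hsd3b7, Acox2 and Hsd17b4 lay between 1.07 and 1.41, and Scp2 (-0.08) and Amacr (-0.40) were within 2-fold. Below 10 CPM some members ran the other way: Atp8b1 had 0.465 CPM in tumour 1 and 3.01 CPM in tumour 2, and Abcb11 had 0 and 6 counts. Other values also moved with this difference. Cdx2, an intestinal transcription factor, had 105.4 CPM in tumour 1 and 0.139 CPM in tumour 2, and the fibroblast markers summed to 3.31 CPM in tumour 1 and 495.5 CPM in tumour 2. The bile duct markers Epcam, at 20.7 CPM in tumour 1 and 0.185 CPM in tumour 2, and Cftr, at 27.1 CPM and 0.324 CPM, moved the same way as the members. The part of any of these in the ratios was not tested.

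**Figure D5:**
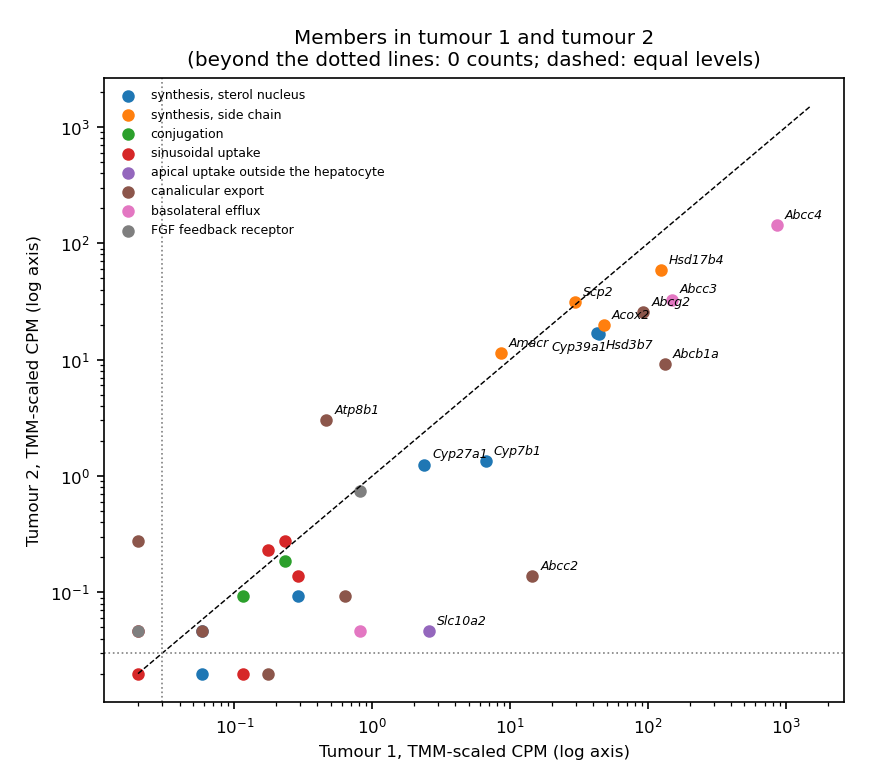
Each member's level in tumour 1 (horizontal) and tumour 2 (vertical), in TMM-scaled CPM on log axes, coloured by role; the dashed line marks equal levels and points beyond the dotted lines are 0 counts. Abcc2, Abcb1a, Abcc4, Abcc3 and Abcg2 lie below the dashed line, toward tumour 1, and Amacr and Scp2 lie near it.

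Between the normal tables the members hardly differed. Of 32 members with at least 10 CPM in either table, 0 differed over 2-fold, against 4.42% of 8267 genes compared. The log2 ratio of the double heterozygous to the wild type table ran from -0.23 (Scp2, which has shared sequence) to 0.26 (Cyp8b1), with a median of 0.17 against 0.11 over all genes compared. Since these tables share counts, as given above, this comparison cannot show whether the genotype alters these genes.

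Taken against each normal table on its own, the calls were nearly the same. These comparisons share the tumours, and they came from 1 fit of 3 groups. With the double heterozygous table as the normal library, 22 members fell and 0 rose, where 5.69% of 14635 genes were called lower and 2.19% higher. With the wild type table in its place, 23 fell and 0 rose, where 6.62% were called lower and 3.07% higher, and the added gene was Atp8b1 (edgeR adjusted p = 0.0488). DESeq2 called 29 members lower and 1, Abcc4, higher, beside 12.8% and 12.2% of 13626 genes with an adjusted p. Its added calls were Hsd3b7, Hsd17b4, Acox2, Slc10a2, Abcc2, Atp8b1, Abcc3 and Abcc4, and Cyp39a1, Abcb1a and Abcg2 passed in neither tool.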

How the data were processed

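Per the submitters' processing notes, the tools were TopHat2 2.0.10, HTSeq, Trimmomatic, FastQC and DESeq2 and the build was mm9. Settings and strand use in counting: not given in the sources used here. For each of 4 libraries the authors deposited 1 table of raw read counts per gene, with no normalization. Lines that name no gene (58.8% to 76.0% of all counts in a table, among them 30.7% to 51.6% that were not unique) were left out of depths and tests. Per the labels' protocols, total RNA came from TRIZOL extraction and libraries were made with a TruSeq kit.

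Members and lists were chosen with earlier results of these data known. Counts were tested with edgeR 4.0.16 in R 4.3.3 (quasi-likelihood test after TMM scaling and filterByExpr at a count of 10; p-values adjusted by Benjamini-Hochberg over all genes, threshold 0.05). Both tumours were set against 1 library, the rounded mean of both normal tables, which leaves 1 residual degree of freedom (common dispersion 0.442, prior degrees of freedom 3.32 at the median). The SE is the absolute log2 fold change over the square root of F and is approximate. Comparisons of 1 library with 1 used log2 ratios with a prior count of 2 over genes of at least 10 CPM. A count of 0 was read against 3 counts per library, and a pooled tumour count of 1 to 3 was given as a ratio with an exact 95% interval. These intervals and floors hold counting error alone, as the labels name no molecular identifiers. Gene lengths (union of exons) and shared sequence (31-base words found in another gene, called shared above 10%; 89.3% of symbols matched) came from GENCODE M21 on GRCm38, another build than that of the counts, so coordinates are given for the RefSeq promoter windows alone. Of genes outside the members, those past the threshold were named, at most 10 a list, with Nr1h4, Nr0b2, Nr5a2, Hnf4a, Alb, Ttr, Krt7, Krt19, Epcam, Ptprc, Cd3e, Pecam1 and Clec4f always. Abcb1b, named with its paralog, Fgf15, Gpbar1 and Fabp6 at 0, Vil1, Cdx2 and Cftr were named after their values were seen. 1 gene counted in the list of further enzymes and transporters is not reported here. Alternatives were other scalings, no filter, DESeq2 1.42.0, separate normal tables, each library left out, and genes with shared sequence left out.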

Additional observations from a re-analysis of the deposited data

How the results depend on the processing

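All 22 members called lower kept their call with size factors of the RLE method, upper quartile scaling, no filter on low counts, the DESeq2 Wald test, both normal tables as separate libraries, and either normal table left out. The exceptions were scaling by total gene counts alone, where Amacr lost its call and 21 were kept, and the fit with shared-sequence genes left out, which has no value for Scp2 and kept the other 21. The count of members called higher, 0 as reported, was 1 (Abcc4) with no filter on low counts, 1 in the DESeq2 Wald test and 1 with both normal tables as separate libraries. The last setting treats tables that share counts as replicates. The cause of the added call was not tested. Scaling by total gene counts alone moved the median log2 fold change of all genes by 1.37, and the log2 fold change of Cyp39a1 was then 0.72 (adjusted p = 0.512), which is below that scaling's median over all genes of 1.56. Upper quartile scaling moved that median by 0.23. With a tumour left out there is 1 library on each side and no test: the members over 2-fold lower, 30 with both tumours, were then 29 to 32, and 18 of the 22 called genes moved over 1.5-fold, in part because those ratios use a larger prior count, with all 22 still below 0 (-13.52 to -3.12). Without tumour 1, Abcb1a was below normal liver. Abca1, outside the members, was past the threshold as reported and not with upper quartile scaling (adjusted p = 0.0520), scaling by total gene counts (0.0675), the wild type table left out (0.0508) or shared-sequence genes left out (0.0505). The 2-fold counts between tumours, 9 higher and 0 lower, were 9 and 0 with a prior count of 0.5 and 10 and 0 without TMM. With promoter windows cut to the 250 bases before the start, the TATA motif was in 6 member windows (7 as reported), without Abcg2. No paired analysis was possible because the groups share no replicate numbers that tie a tumour to a normal sample. Depth limits the genes near 0: with 1 count at 0.0581 and 0.0463 CPM in the tumours, levels below that cannot be told apart from 0.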

Other observations

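In transporter families chosen by symbol after the data were seen, 2 genes rose. Both were exporters of the Abcc group, in which Abcc6 and Abcc9 fell. Of 50 listed ABC transporters 40 were tested, and 8 fell and 2 rose in edgeR, beside 5.19% and 2.23% of all genes. The 8 include the 5 exporter members already given as falling. The 2 that rose, neither of them a member, were Abcc1, described with the basolateral genes, and Abcc5, an exporter of cyclic nucleotides. Abcc5 had 3570 and 3236 counts in tumours 1 and 2, against 48 and 62 in the double heterozygous and wild type normal tables (178.5 ± 40.8 CPM, SD, n = 2, against 5.06 CPM in the mean normal; log2 fold change 5.10, SE 0.76, adjusted p = 0.0379). Both tumours lay above both normal tables, and the tumours lay close together. Of the ABC genes outside the members that fell, Abcb6, a mitochondrial and lysosomal porphyrin transporter, stood at 20.4 and 24.3 CPM in the tumours, against 253.4 and 229 CPM (adjusted p = 0.0395), with 52.7% shared sequence. Abcc9, a subunit of potassium channels in vessel walls, had 0 and 1 counts in the tumours, against 222 and 250 (adjusted p = 0.0356). The other was Abca1. Of 10 tested Slco carriers 4 fell and 0 rose, and of 5 tested Slc10 carriers 1 fell and 0 rose, beside the same shares of all genes. Each of these carriers that fell is a member already described, so these counts add no gene. The median log2 fold change was -2.04 over the ABC genes and 1.41 over the Slco genes, against 0.19 over all genes tested.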
